A study of Mus musculus with 6 samples.

Results

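Fatty acids are the main fuel of the adult heart, and the genes described here encode the proteins that bring them into the cardiomyocyte and break them down. They were taken by symbol from a list of 33 genes of fatty acid uptake and beta-oxidation. 30 of the 33 had values among the 16229 genes of the table, and all 30 passed the filter of a mean of at least 0 log2 CPM over the libraries, as did 12981 genes in all. Cpt1b, Acad11 and Acaa1a were not analysed here. The data are poly-A RNA-seq of hearts of male mice of the inbred strain C57BL/6, aged 8 to 10 weeks. There were 2 libraries from untreated mice (replicates 8 and 9), 2 from mice given rivaroxaban (replicates 14 and 15) and 2 from mice given dabigatran (replicates 10 and 12). Treatment lasted 7 days in both drug groups, with 3 mg/kg of rivaroxaban, which blocks clotting factor Xa, or 10 mg/kg of dabigatran, which blocks thrombin (factor IIa). All groups were wild type, and the series is about ischemia-reperfusion injury. The extraction text describes the tissue as infarct with its surroundings in every group, but surgery in the untreated mice is not stated. Nor is it stated that each library is a different mouse, and the p-values then reflect the spread between libraries alone, which may be technical. Values are log2 CPM, the log2 of a gene's reads relative to the scaled library total.

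A fatty acid enters through the membrane transporter CD36 or with help of FATP1 (Slc27a1), is carried in the cytosol by FABP3 and is joined to coenzyme A by ACSL1. The carnitine shuttle takes the acyl chain into the mitochondrion, a step that malonyl-CoA holds back. Inside, chain-length-specific acyl-CoA dehydrogenases, then a hydratase, a hydroxyacyl-CoA dehydrogenase and a thiolase shorten the chain cycle by cycle. The dehydrogenases pass their electrons through the electron transfer flavoprotein to the respiratory chain. In heart many of these genes are known targets of the nuclear receptors PPAR and ERR, with PGC-1 as coactivator.

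Library depth ran from 27176892 to 43798222 reads, as recovered from the deposited values, and a member had between 501 and 157993 reads in a library. The 30 genes together took between 2.50% and 2.79% of the CPM of a library. Cardiomyocyte markers, 10 of 12 of which had values, summed to between 111418 and 117538 CPM in a library, and Actc1 and Pln were not analysed here. Leukocyte markers, 10 of 11 of which had values, summed to between 438 and 513 CPM in a library, and Cd3e was not analysed here. Among them Lyz2 had between 5695 and 10220 reads in a library. S100a8 and S100a9, abundant in neutrophils, were near the floor, with between 5 and 21 reads in a library. Mesothelial markers, 7 of 7 with values, summed to 77.1 and 73.5 CPM in untreated, 40.7 and 48.4 in rivaroxaban and 51.2 and 54.5 in dabigatran libraries. Of these 7, 5 passed a limma adjusted p of 0.05 as lower with rivaroxaban (0.986% of all genes tested). With dabigatran 2 did (0.501% of all genes). The mean was lower in 6 of the 7 with each drug, and 0 passed between the drugs. Wt1 rose with both drugs (log2 0.47 and 0.51, limma adjusted p = 0.0289 and 0.0274). Of the erythroid markers 1 of 6, Slc4a1, had values, with 23 and 7 reads in untreated, 66 and 36 in rivaroxaban and 68 and 74 in dabigatran libraries, and it rose with dabigatran (log2 2.12, adjusted p = 0.0487; rivaroxaban log2 1.67, adjusted p = 0.0982). The part of these markers in the results was not tested. In bulk tissue, fewer cells of a type and less RNA per cell cannot be told apart.

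Sequences next to the start sites of a few members are shown because PPAR and ERR are known to act on genes of this pathway. Of the 30 genes, 24 had a RefSeq promoter window (GRCm38.p6), 27 windows in all, and the 250 bases upstream of the start were searched on both strands. The DR1 motif that PPAR binds with RXR, a direct repeat of AGGTCA with 1 base between the copies, was found in none of them and in 0.0335% of 32851 windows of this length. The ERR motif TCAAGGTCA was also found in none, against 0.387% of all windows. Only exact letters were counted, and such matches are so rare that their absence from 27 windows says little. The hexamer AGGTCA, which is part of both motifs, was found upstream of Acadm, Acadvl, Cd36 and Echs1, in 4 of 27 windows, against 14.0% of all windows. 2 of these windows are given, with the hexamer or its reverse complement in capitals, for the enzymes that open the cycle on medium and very long chains. The Acadm window lies at chr3:153944644-153944893 on the minus strand and the Acadvl window at chr11:70015429-70015678 on the minus strand. The third stretch, with no match, is the gap of 85 bases between the genes Hadha and Hadhb at chr5:30155163-30155247, read on the plus strand, since these genes encode the subunits of 1 enzyme and point away from each other.
Acadm: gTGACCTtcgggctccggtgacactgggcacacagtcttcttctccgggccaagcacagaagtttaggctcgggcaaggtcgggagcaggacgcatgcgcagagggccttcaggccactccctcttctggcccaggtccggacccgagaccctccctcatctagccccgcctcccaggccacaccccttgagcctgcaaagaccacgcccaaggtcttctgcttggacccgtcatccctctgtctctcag
Acadvl: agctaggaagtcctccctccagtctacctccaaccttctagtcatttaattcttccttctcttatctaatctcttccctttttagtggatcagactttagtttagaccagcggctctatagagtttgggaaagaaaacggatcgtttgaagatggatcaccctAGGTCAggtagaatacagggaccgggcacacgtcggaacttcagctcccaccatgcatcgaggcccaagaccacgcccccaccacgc
Hadha-Hadhb gap: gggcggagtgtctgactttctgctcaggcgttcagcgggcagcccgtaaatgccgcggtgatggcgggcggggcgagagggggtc
A match is a description of the letters, not a binding site.

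Rivaroxaban was first set against untreated hearts. None of the 30 genes passed a limma adjusted p of 0.05, against 2.46% of all genes tested (1.47% higher and 0.986% lower), and 5 had an unadjusted p under 0.05, against 17.2% of all genes. The median log2 difference was -0.067, with 26 of 30 genes lower, beside a median of 0.0050 and 48.5% lower over all genes. The differences ran from -0.23 (Fabp3) to 0.085 (Acacb). All 30 of the 95% intervals, taken gene by gene, lay within 0.5 of 0 on the log2 scale, and their outermost bounds were 0.757 and 1.28 times the untreated level. Both rivaroxaban libraries lay below both untreated ones in 13 genes (24.5% of all genes tested) and above them in 1, Acacb (26.1% of all genes). With quantile normalization the median was -0.043. The order of the groups rested on untreated replicate 8: without it the median was 0.014 with 14 genes lower, and without untreated replicate 9 it was -0.14 with 27 lower.

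Dabigatran was set against the same untreated hearts, and the differences centred on 0. None of the 30 genes passed, against 1.88% of all genes (1.38% higher and 0.501% lower), and 1, Acacb, had an unadjusted p under 0.05, against 14.7% of all genes. The median log2 difference was 0.0040, with 13 genes lower and 17 higher, beside 0.0026 over all genes. With libraries centred on their medians 18 were lower, and with quantile normalization 17. The range was from -0.086 (Acat1) to 0.22 (Ehhadh). The intervals of 29 genes lay within 0.5 of 0, and that of Ehhadh reached 0.54, or 1.46 times the untreated level. Both dabigatran libraries lay above both untreated ones in 3 genes, Cd36, Acacb and Mlycd (22.8% of all genes tested), and below them in none (20.8% of all genes). This comparison shares its untreated libraries with the first: the median was 0.070 with 4 genes lower without replicate 8, and -0.052 with 23 lower without replicate 9.

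Between the drugs, every one of the 30 genes had a lower mean with rivaroxaban, by small amounts, and none passed. The share called among all genes was 0.077%, and 5 of the 30 had an unadjusted p under 0.05, against 8.43% of all genes. The median log2 difference was -0.077, from -0.20 (Fabp3) to -0.0032 (Hadha). In 20 of the 30 both rivaroxaban libraries lay below both dabigatran ones (20.4% of all genes tested), and in none above (19.3% of all genes). With quantile normalization the median was -0.040 with 23 of 30 lower, and with 1 library left out the count lay between 25 and 30. The intervals of 29 genes lay within 0.5 of 0, and that of Ehhadh reached -0.51. The drugs were given at different doses, so the values stand side by side for these doses only.

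**Figure D1:**
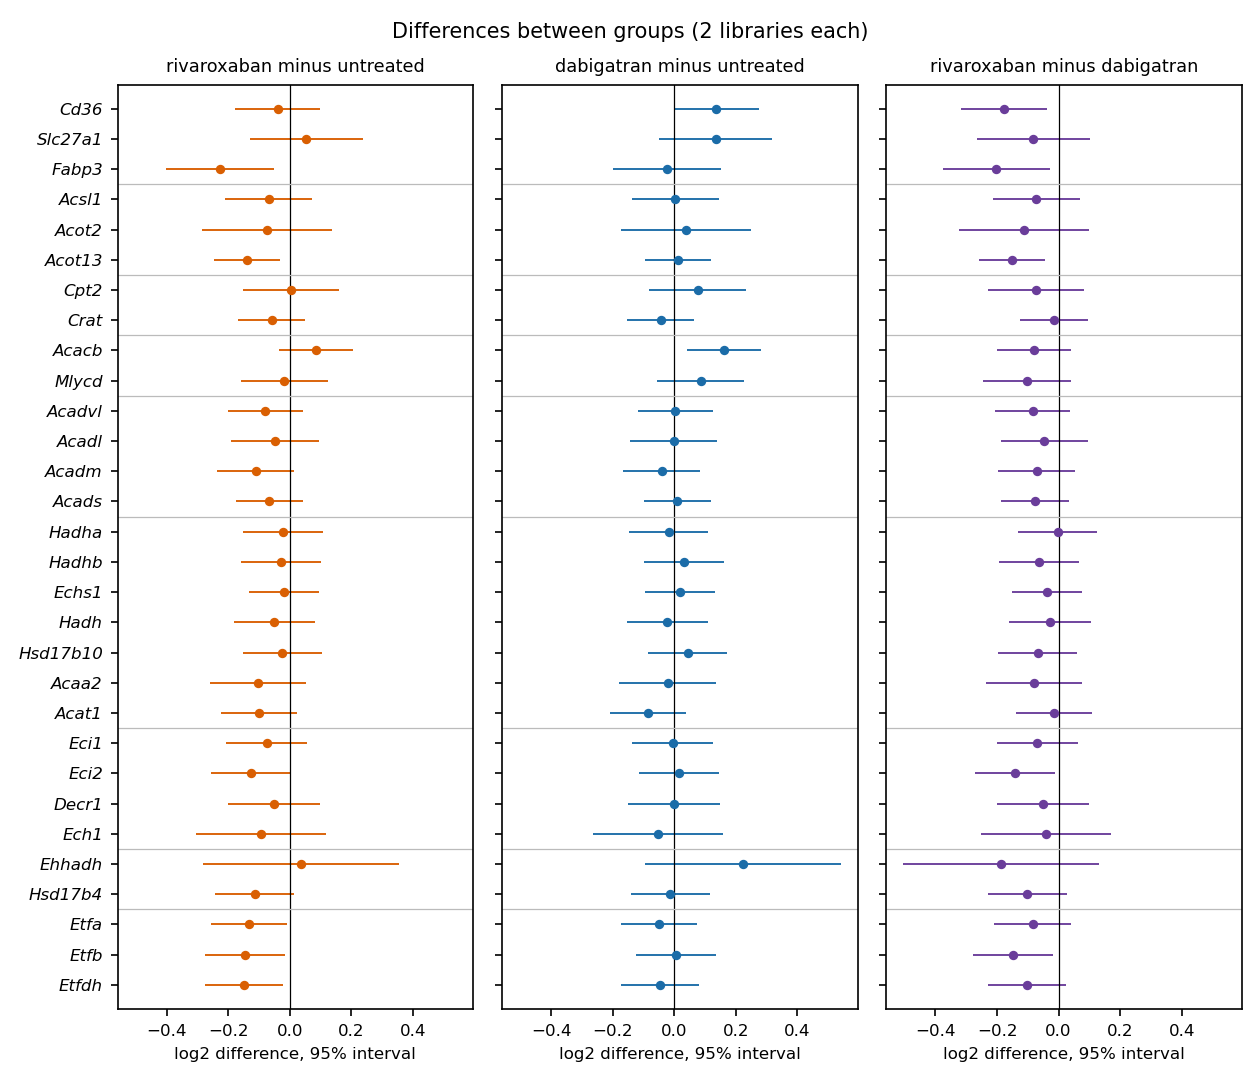
Log2 difference between group means for each of the 30 genes (points) with the 95% interval of the limma fit (bars), for 3 comparisons of 2 libraries with 2; grey lines divide the roles in the pathway. No gene passed an adjusted p of 0.05; all 30 points lie below 0 for rivaroxaban minus dabigatran, the lowest at -0.20.

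Highly expressed genes of the whole table had differences of the same sign. Of the 245 genes with a mean of at least 9 log2 CPM, 76.3% had a lower mean with rivaroxaban than with dabigatran (median log2 -0.051), and 69.8% a lower mean than in untreated hearts (median -0.041). 16 of the 30 members are at that level and 28 have a mean of at least 7 log2 CPM, where 65.6% of 1329 genes were lower with rivaroxaban than with dabigatran. All 10 cardiomyocyte markers with values were lower with rivaroxaban than with dabigatran as well, with a median of -0.052 and none passing. Their summed level was 116097 and 117538 CPM in untreated, 111418 and 114446 in rivaroxaban and 116712 and 116959 in dabigatran libraries, so the rivaroxaban libraries were the lowest pair. Fibroblast markers, all 9 tested and none passing, had a median of 0.19 in the same comparison, with summed levels of 1714 and 1510 CPM in rivaroxaban and 1418 and 1551 CPM in dabigatran libraries. The part of these in the members' values was not tested.

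**Figure D2:**
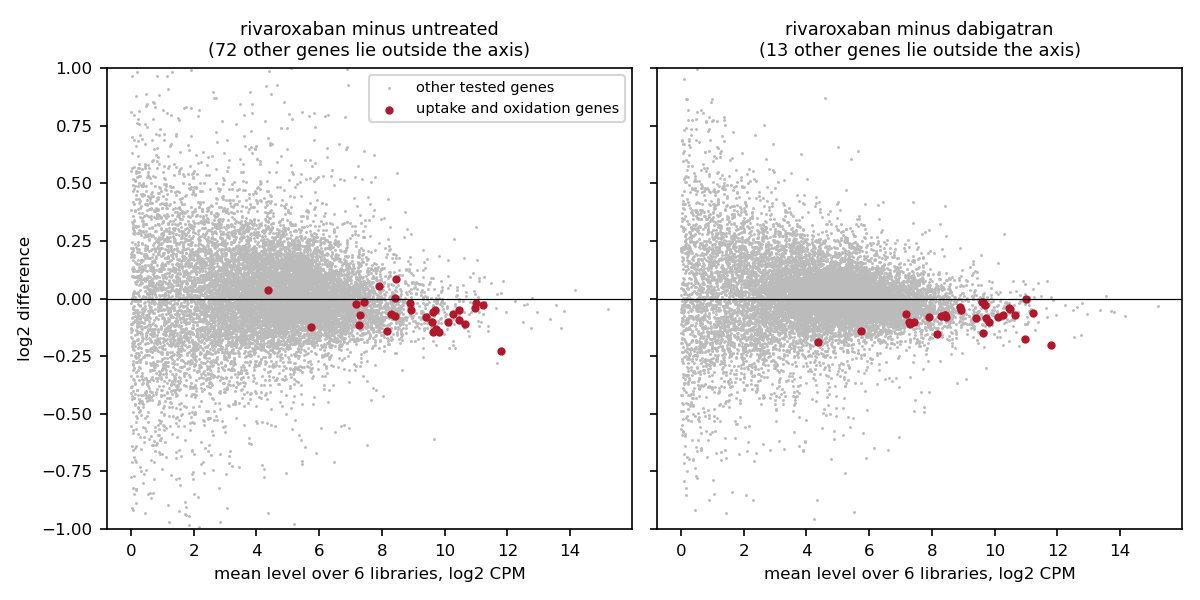
Log2 difference (vertical) against the mean level over the 6 libraries in log2 CPM (horizontal) for the 12981 tested genes, with the 30 uptake and oxidation genes in red; 72 and 13 other genes lie beyond the axis limit of 1. The red points lie close to 0 at mostly high levels, and all 30 are below 0 in the right panel.

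The members shared much of their variation between libraries. In untreated replicate 8, 26 of the 30 lay above their own mean over the libraries, and 20 had their highest value there. In rivaroxaban replicate 14 none lay above its mean, in untreated replicate 9 5 did, and in dabigatran replicate 12 24 did. The median deviation from the gene's mean was 0.084 and -0.053 log2 in the untreated libraries, -0.062 and -0.021 with rivaroxaban and 0.018 and 0.038 with dabigatran. The untreated libraries were thus further apart than the libraries of either drug group. Over all tested genes the same medians lay between -0.0028 and 0.0030. For the 245 genes with a mean of at least 9 log2 CPM they lay between -0.042 and 0.029. For the cardiomyocyte markers they lay between -0.055 and 0.023, and both sets were lowest in rivaroxaban replicate 14. The counts of members above their mean were not set against counts of other genes.

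**Figure D3:**
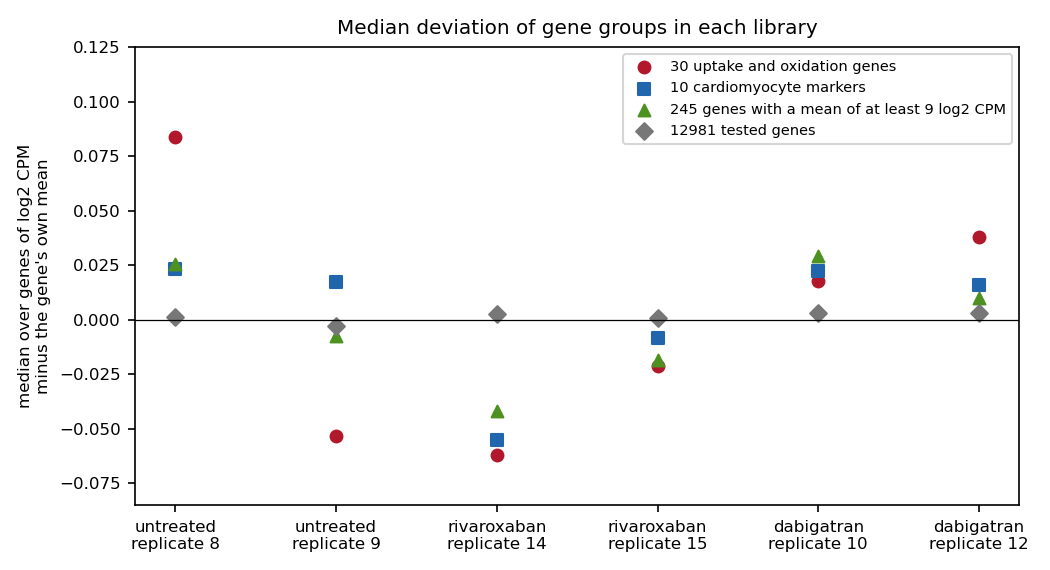
Median over genes of the log2 CPM minus each gene's own mean over the 6 libraries (vertical), by library, for the 30 members, 10 cardiomyocyte markers, 245 highly expressed genes and all 12981 tested genes. The members are highest in untreated replicate 8 (0.084) and lowest in rivaroxaban replicate 14 (-0.062), while all tested genes stay near 0. The cardiomyocyte markers and the highly expressed genes are also lowest in rivaroxaban replicate 14 (-0.055 and -0.042).

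**Figure D4:**
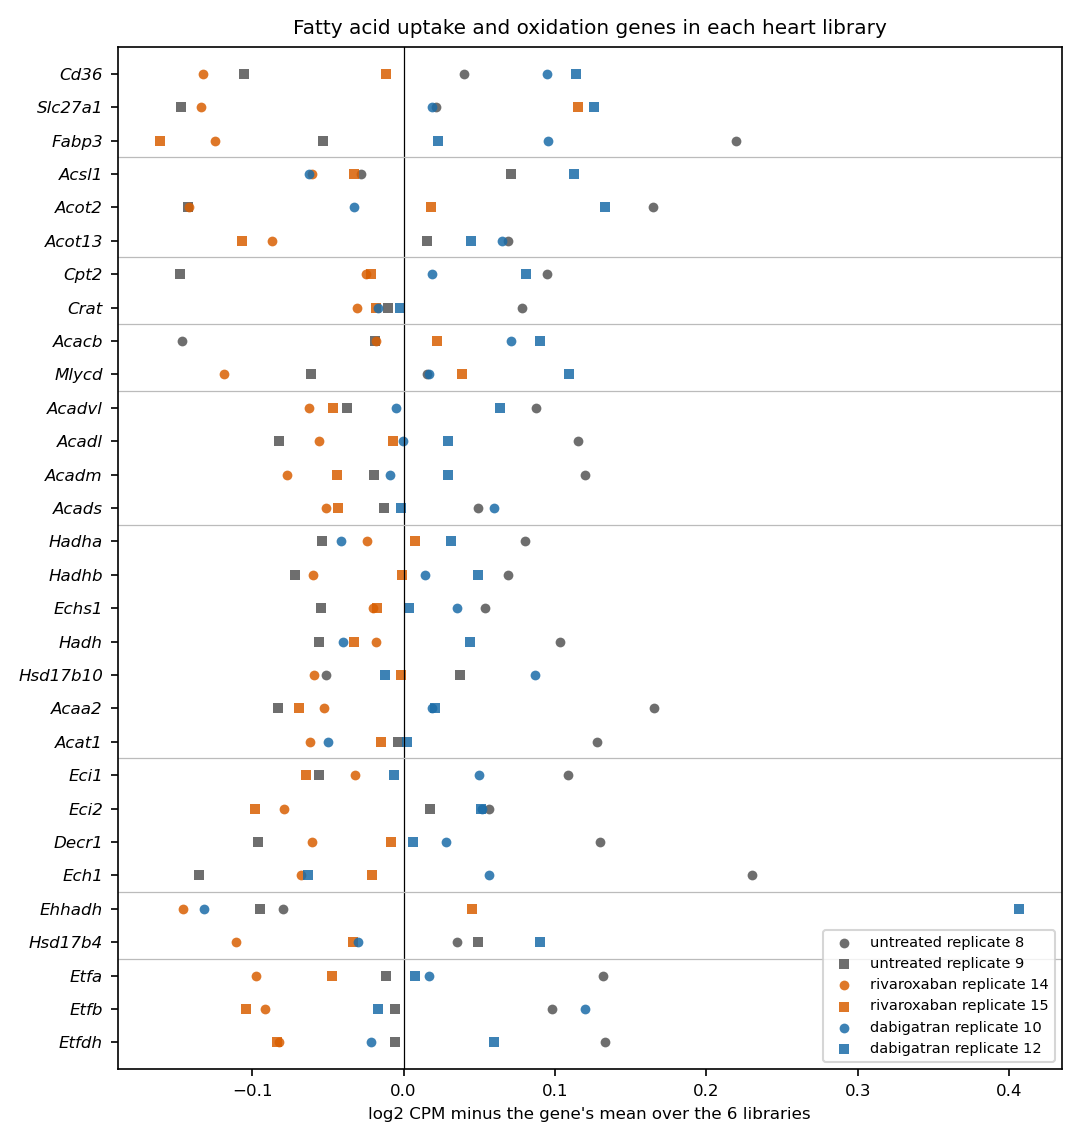
Each member's log2 CPM minus its mean over the 6 libraries (horizontal), 1 point per library, with grey lines between roles. 26 of the 30 genes spread over less than 0.3; untreated replicate 8 holds the highest point in 20 genes and Ehhadh has the widest spread, 0.55.

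Among the uptake proteins, Fabp3, the cytosolic fatty acid binding protein of heart muscle (ENSMUSG00000028773, chromosome 4, 130308595 to 130315463 on mm10), was the most abundant member per length, with 4347 CPM per kb of transcript. It had 12.02 and 11.75 log2 CPM in untreated hearts, 11.67 and 11.64 with rivaroxaban and 11.89 and 11.82 with dabigatran. The rivaroxaban libraries were the lowest and did not overlap either other group. The difference from untreated was -0.23 (SE 0.079, limma adjusted p = 0.174), 0.855 of the untreated level, and that from dabigatran -0.20 (adjusted p = 0.518). Untreated replicate 8 was the highest library, and without replicate 9 the difference from untreated was -0.36 (adjusted p = 0.0296), while without replicate 8 it was -0.089 (adjusted p = 0.65). With quantile normalization it was -0.10. On the opposite strand Fabp3 overlaps Zcchc17 and Gm10570, and whether reads were counted by strand is not given in the sources used here.

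Cd36, the main fatty acid transporter of the cell surface (ENSMUSG00000002944, chromosome 5, 17781690 to 17888801), is also made by capillary endothelium. It had 11.00 and 10.86 log2 CPM in untreated, 10.83 and 10.95 in rivaroxaban and 11.06 and 11.08 in dabigatran hearts. The dabigatran pair was above all other libraries. Its difference from untreated was 0.14 (SE 0.063, limma adjusted p = 0.344) and rivaroxaban minus dabigatran was -0.18 (adjusted p = 0.47). Slc27a1 had 7.93 and 7.77, then 7.78 and 8.03, then 7.93 and 8.04 log2 CPM in the same order of groups, and all groups overlapped.

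Of the genes that make and split acyl-CoA, Acsl1, the main long-chain acyl-CoA synthetase of heart, lay between 10.20 and 10.38 log2 CPM in all 6 libraries. Its log2 differences from untreated were -0.068 with rivaroxaban and 0.0036 with dabigatran. Acot13, a thioesterase that releases fatty acids from acyl-CoA, had 8.22 and 8.17 log2 CPM in untreated, 8.06 and 8.04 in rivaroxaban and 8.22 and 8.20 in dabigatran hearts. The rivaroxaban pair lay below the other 4 libraries. Its differences of -0.14 from untreated and -0.15 from dabigatran had the lowest adjusted p of the members in those comparisons, 0.168 and 0.394. Acot2, the mitochondrial thioesterase, lay between 7.17 and 7.48 log2 CPM with overlap of all groups, and its reads may be shared with its close copy Acot1.

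In the carnitine shuttle, Cpt2, which rebuilds acyl-CoA inside the mitochondrion, had log2 differences from untreated of 0.0032 with rivaroxaban and 0.076 with dabigatran. Crat, which moves acetyl groups between carnitine and coenzyme A, had -0.059 and -0.044 and spread over only 0.11 log2 across the libraries. Acacb makes the malonyl-CoA that blocks entry into the shuttle (ENSMUSG00000042010, chromosome 5, 114146535 to 114250761). It had 8.31 and 8.44 log2 CPM in untreated, 8.44 and 8.48 in rivaroxaban and 8.53 and 8.55 in dabigatran hearts. Both drug pairs lay above the untreated pair, the rivaroxaban pair narrowly. The difference with dabigatran was 0.16 (SE 0.054, 95% interval 0.043 to 0.28, limma adjusted p = 0.182) and with rivaroxaban 0.085 (adjusted p = 0.451). Mlycd, which destroys malonyl-CoA, had 7.45 and 7.37 log2 CPM in untreated, 7.32 and 7.47 in rivaroxaban and 7.45 and 7.55 in dabigatran hearts, with a difference of 0.086 for dabigatran (adjusted p = 0.59).

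The 4 measured acyl-CoA dehydrogenases, which take the first step of each cycle, had small differences in both comparisons. Their log2 differences from untreated ran from -0.11 to -0.048 with rivaroxaban and from -0.040 to 0.011 with dabigatran. Acadm, the medium-chain enzyme whose promoter is shown above (ENSMUSG00000062908, chromosome 3, 153922357 to 153944632), had 10.77 and 10.63 log2 CPM in untreated, 10.57 and 10.61 in rivaroxaban and 10.64 and 10.68 in dabigatran hearts. The rivaroxaban pair was the lowest, at a difference of -0.11 from untreated (SE 0.057, limma adjusted p = 0.352). Acadvl, the very-long-chain enzyme, had 9.51 and 9.38, then 9.36 and 9.37, then 9.41 and 9.48 log2 CPM. Acadl (long chains) and Acads (short chains) had differences from untreated of -0.048 and -0.066 with rivaroxaban and of -0.0020 and 0.011 with dabigatran.

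Hadha and Hadhb encode the alpha and beta subunits of the mitochondrial trifunctional protein, which carries out the hydratase, dehydrogenase and thiolase reactions on long chains. Hadha (chromosome 5, 30118304 to 30155162) had 11.09 and 10.96 log2 CPM in untreated, 10.99 and 11.02 in rivaroxaban and 10.97 and 11.04 in dabigatran hearts. Hadhb (chromosome 5, 30155248 to 30184593) had 11.29 and 11.15, then 11.17 and 11.22, then 11.24 and 11.27. Both had their highest value in untreated replicate 8 and their lowest in untreated replicate 9, so the untreated pair spanned the other 4 libraries. Their differences from untreated lay between -0.029 and 0.033 for both drugs (limma adjusted p from 0.839 to 0.923). Over the 7 genes of these steps (Hadha, Hadhb, Echs1, Hadh, Hsd17b10, Acaa2 and Acat1) the range was from -0.10 to -0.018 with rivaroxaban and from -0.086 to 0.044 with dabigatran. Acat1, the thiolase that also serves ketone use, had the lowest dabigatran difference of all members, -0.086 (adjusted p = 0.526).

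The 4 genes for unsaturated chains, which move or reduce double bonds, had differences from -0.13 to -0.051 with rivaroxaban and from -0.051 to 0.015 with dabigatran. Eci2 had 5.79 and 5.75 log2 CPM in untreated, 5.65 and 5.63 in rivaroxaban and 5.78 and 5.78 in dabigatran hearts, with the rivaroxaban pair below the other 4 (rivaroxaban minus untreated limma adjusted p = 0.307). Ech1 showed the widest untreated pair of the mitochondrial genes, 10.70 and 10.34 log2 CPM, which enclosed the values of both drug groups. Ehhadh, the peroxisomal bifunctional enzyme, was the least abundant member, at 6.96 CPM per kb. It had 4.28 and 4.27 log2 CPM in untreated, 4.22 and 4.41 in rivaroxaban and 4.23 and 4.77 in dabigatran hearts, so its dabigatran mean rested on replicate 12. Hsd17b4, the other peroxisomal enzyme, had 7.31 and 7.32, then 7.16 and 7.24, then 7.24 and 7.36.

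The electron transfer flavoprotein genes had the lowest median log2 difference of the roles for rivaroxaban against untreated, -0.14, with all 3 of them lower. All genes were also lower among the acyl-CoA dehydrogenases (4 of 4) and the hydratases, hydroxyacyl-CoA dehydrogenases and thiolases (7 of 7). The same held for unsaturated chains (4 of 4) and for acyl-CoA synthesis and hydrolysis (3 of 3). Etfdh, the membrane enzyme that hands electrons to ubiquinone, had 9.95 and 9.81 log2 CPM in untreated, 9.73 and 9.73 in rivaroxaban and 9.79 and 9.87 in dabigatran hearts. Etfa, the alpha subunit, had 9.86 and 9.72, then 9.64 and 9.68, then 9.75 and 9.74. Etfb, the beta subunit, had 9.72 and 9.61, then 9.53 and 9.51, then 9.74 and 9.60. In all 3 the rivaroxaban pair lay below the other 4 libraries (below untreated in 24.5% and below dabigatran in 20.4% of all genes tested). The share of all genes below both groups at once was not counted, here or for the single genes above. The differences from untreated were -0.15, -0.13 and -0.14 (SE 0.057, 0.056 and 0.059), and none passed (limma adjusted p = 0.225, 0.26 and 0.243). With dabigatran the same differences were -0.045, -0.048 and 0.0052. Without untreated replicate 8 the median of rivaroxaban against untreated over all 30 members, not these 3 alone, was 0.014. In these 3 genes untreated replicate 9 also lay above the rivaroxaban pair, by less than replicate 8 did.

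Other lists of the same metabolism were counted in the same fit, with 1.47% and 1.38% of all genes called higher with rivaroxaban and with dabigatran. The lists were chosen with earlier results of these data known, so their counts cannot be weighed against these shares. Of 12 tested other uptake genes 1, Gpihbp1, rose with each drug. Of 21 transcriptional regulators, Ppara and Pparg rose with rivaroxaban and Ppara with dabigatran, and none fell. Of 9 tested PPAR targets outside the oxidation enzymes 1, Vldlr, rose with dabigatran and 0 with rivaroxaban. Of 13 tested genes of triglyceride storage and lipolysis, Plin4 rose with each drug and Mgll with dabigatran. No gene passed with either drug among 12 other carnitine and malonyl-CoA genes, 17 other acyl-CoA dehydrogenases, thioesterases and helpers, 15 other peroxisomal genes, 6 of ketone oxidation and 24 of glucose uptake and pyruvate oxidation. None of these lists held a called gene between the drugs, where 10 of all genes passed.

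Ppara encodes the nuclear receptor that drives these oxidation genes in heart. It had 4.72 and 4.70 log2 CPM in untreated, 5.14 and 5.31 in rivaroxaban and 5.25 and 5.04 in dabigatran hearts, and all 4 treated libraries were above the untreated pair. It rose 1.43-fold with rivaroxaban (log2 0.52, SE 0.087, limma adjusted p = 0.0126) and 1.35-fold with dabigatran (log2 0.44, adjusted p = 0.0363). Leaving out any untreated library ended both calls, as did leaving out rivaroxaban replicate 15 for the first and dabigatran replicate 10 or quantile normalization for the second, where log2 differences stayed between 0.43 and 0.60 and between 0.34 and 0.54. Pparg, best known from fat cells, had 3.90 and 3.60, then 4.29 and 4.38, then 4.36 and 4.06 log2 CPM, and rose with rivaroxaban (log2 0.58, adjusted p = 0.0353; 0.43 to 0.73 over the alternatives, 5 of which ended the call). Of 8 adipocyte markers 6 had values, which summed to between 1.57 and 6.18 CPM in a library, with 4.08 and 2.56 in untreated, 1.57 and 6.18 in rivaroxaban and 3.24 and 4.19 in dabigatran libraries.

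Gpihbp1, the endothelial protein that holds lipoprotein lipase in the capillary, had 6.21 and 6.17 log2 CPM in untreated, 6.53 and 6.59 in rivaroxaban and 6.66 and 6.60 in dabigatran hearts. It rose 1.29-fold and 1.35-fold (log2 0.37 and 0.44, SE 0.056, limma adjusted p = 0.00731 and 0.00465). Leaving out rivaroxaban replicate 15 ended the first call. Endothelial markers, all 10 of 10 with values, summed to 1406 and 1470 CPM in untreated, 1570 and 1500 in rivaroxaban and 1512 and 1595 in dabigatran libraries. They did not move together: 4 of 10 had a lower mean with rivaroxaban and 3 of 10 with dabigatran. Emcn fell with rivaroxaban (log2 -0.43, adjusted p = 0.00336), Eng rose with both drugs (log2 0.26 and 0.25, adjusted p = 0.0278 and 0.0397) and Flt1 rose with dabigatran (log2 0.29, adjusted p = 0.0376). The part of endothelial RNA in the Gpihbp1 values was not tested. Plin4, a lipid droplet coat protein, had 7.51 and 7.25, then 7.74 and 8.08, then 8.05 and 7.99 log2 CPM, and rose 1.44-fold and 1.55-fold (adjusted p = 0.0264 and 0.0143). Its calls were lost without untreated replicate 9, and without rivaroxaban replicate 15 or dabigatran replicate 10. With dabigatran Vldlr, the very-low-density lipoprotein receptor, rose 1.23-fold from 8.35 and 8.43 to 8.65 and 8.71 log2 CPM (adjusted p = 0.0376), and Mgll, which cleaves monoglycerides, rose 1.23-fold from 7.78 and 7.66 to 8.07 and 7.97 (adjusted p = 0.0364). These were lost under 6 and 7 of the 14 alternatives, among them each untreated or dabigatran library left out for Vldlr, and each untreated or rivaroxaban library or dabigatran replicate 10 for Mgll. The fit without the mean-variance trend ended every call named in these lists. Pparg, Plin4 and Mgll overlap other annotated genes, and strand use in the counting is not known.

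Some fasting-responsive PPAR targets, chosen after their values were seen, varied far more between libraries than the oxidation enzymes did. Pdk4, the kinase that shuts off pyruvate oxidation, had 7.82 and 6.47 log2 CPM in untreated, 8.03 and 9.59 in rivaroxaban and 8.49 and 9.46 in dabigatran hearts. Its differences of 1.66 and 1.83 did not pass (limma adjusted p = 0.113 and 0.0993). Ucp3, a mitochondrial carrier protein, had 6.39 and 5.01, then 6.13 and 6.86, then 6.23 and 7.12 (adjusted p = 0.331 and 0.273). Untreated replicate 9 was the lowest library for both genes, while across the same libraries the widest spread of a member was 0.55 log2. Other such targets, Angptl4 and Plin5, had small differences between group means. Angptl4 had 3.54 and 1.15 log2 CPM in untreated hearts, with differences of 0.058 with rivaroxaban and 0.031 with dabigatran (SE 0.73 for each). Plin5 had differences of -0.034 and 0.015. Of the 9 tested PPAR targets outside the oxidation enzymes, 2 had a lower mean with rivaroxaban than in untreated hearts and 0 with dabigatran. The coactivator Ppargc1a had 7.05 log2 CPM in dabigatran replicate 10 and between 6.33 and 6.55 in the other 5 libraries.

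**Figure D5:**
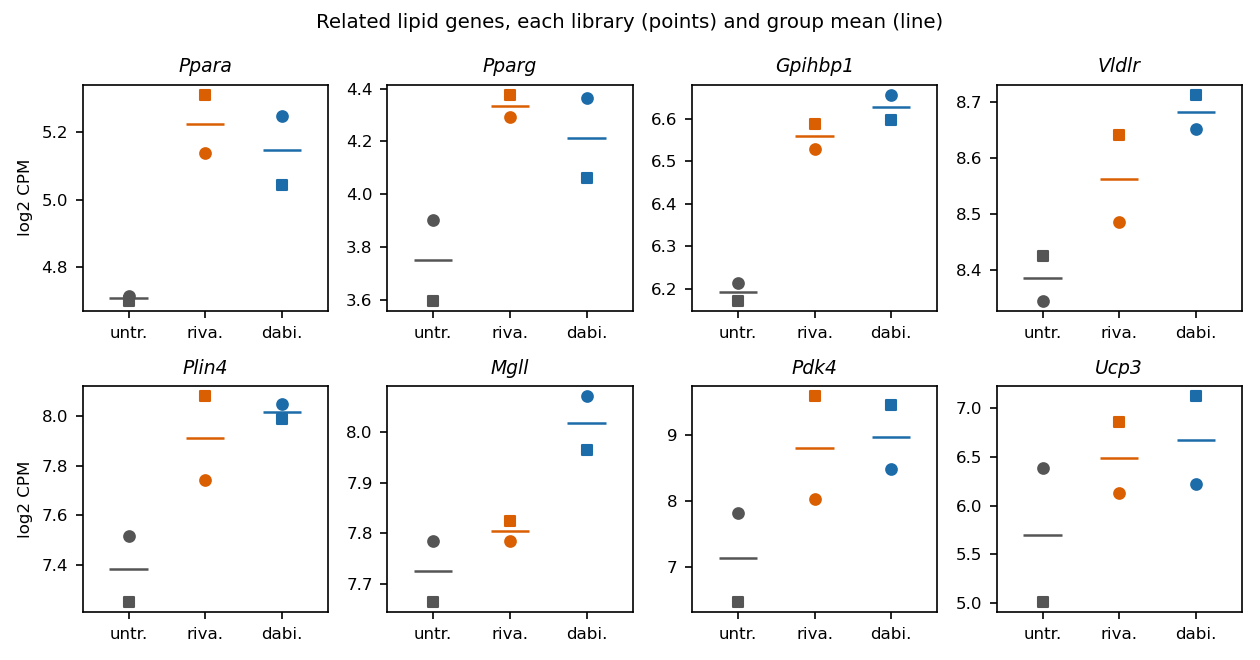
Level in log2 CPM (vertical, a separate scale in each panel) of 8 related genes in untreated (grey), rivaroxaban (orange) and dabigatran (blue) hearts; points are libraries and lines are group means. Ppara, Pparg, Gpihbp1, Vldlr, Plin4 and Pdk4 are above the untreated pair in all 4 treated libraries, and Mgll and Ucp3 are not. Of all tested genes, 26.1% have both rivaroxaban libraries above the untreated pair and 22.8% both dabigatran libraries. Pdk4 runs from 6.47 to 9.59.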

How the data were processed

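Heart poly-A RNA was sequenced in 6 libraries, 2 per treatment named in the labels. Per the labels' protocols a directional kit was used. Build mm10 and the tools STAR, Trim Galore, FastQC, bcl2fastq and edgeR stand in the submitters' processing notes without versions. How reads were assigned to genes is not stated. By its title the deposited table holds log2 CPM after TMM scaling by the authors. All libraries share 1 lowest value, -4.04 log2 CPM, so an added constant lies under the log2 and understates changes of low genes. Removing it on the linear scale gave whole reads for 100% of values below 200 reads (tolerance 0.02), and from these the depths.

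Group means of all 6 libraries were fitted with limma 3.58.1 in R 4.3.3 (mean-variance trend, 3 residual degrees of freedom, prior degrees of freedom 7.75) to the 12981 genes with a mean of at least 0 log2 CPM. Tests were two-sided, with Benjamini-Hochberg adjustment over these genes and a threshold of 0.05. The procedure was tested on simulated data with 200 changed genes and a coefficient of variation of 0.1. For rivaroxaban and dabigatran against untreated and rivaroxaban against dabigatran, 97%, 93% and 93% of changes of log2 1 were recovered. Of changes of log2 0.5, only 38%, 44% and 35% were recovered. These shares hold for that coefficient of variation, and recovery at the spread and level of the 30 members was not tested. In the fit to the data the median SE of a difference was 0.059 log2 for the members and 0.089 log2 over all tested genes. Level per length used the longest protein-coding transcript of GENCODE M21 (GRCm38), as did coordinates. All 30 members were named, and up to 4 called genes of each related list. Members and lists were chosen with earlier results of these data known. 14 alternatives were tried, of which voom weights on the recovered reads were chosen after seeing the file. The planned edgeR and DESeq2 tests were not run; voom on the recovered reads was the count-based test run in their place. Labels give no batch and no paired numbers.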

Additional observations from a re-analysis of the deposited data

How the results depend on the processing

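Under 13 of the 14 alternatives, voom weights included, 0 members were called in any comparison. With 1 library left out, between 0 and 1 members were called lower with rivaroxaban than in untreated hearts, the 1 being Fabp3 without untreated replicate 9. The median log2 difference in these refits lay between -0.14 and 0.014 for rivaroxaban and between -0.052 and 0.070 for dabigatran against untreated, and between -0.092 and -0.055 for rivaroxaban against dabigatran. The number of members with a lower mean lay between 14 and 28, between 4 and 23 and between 25 and 30. Members changed the sign of a difference, without a call, in 24, 47 and 16 of 420 values in these comparisons. The fit without the mean-variance trend called no gene at all, with 1938, 1728 and 984 genes at an unadjusted p under 0.05. With quantile normalization the medians were -0.043, -0.0093 and -0.040. The planned edgeR and DESeq2 tests were not run, and voom on the recovered reads took their place. No paired analysis was possible because the groups share no replicate numbers. With 2 libraries a group, differences near 0.1 log2 were within the intervals. A group left with 1 library was assumed to vary like the others.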
